A study of Mus musculus with 4 samples.

Results

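The H3K27me2 peaks described here lay in gene deserts. They were the peaks that the deposited annotation called distal intergenic and placed 100 kb or more from the nearest listed transcription start site. Of 56036 peaks in 4 lists, 7753 met this rule, and another 14112 distal intergenic peaks lay nearer to a start site. There were 565 gene-desert peaks among 5744 maternal peaks of Ezh2m+/p+ zygotes (9.84%, 95% Wilson interval 9.09 to 10.6) and 2537 among 17863 paternal peaks (14.2%, 13.7 to 14.7). In Ezh2m-/p+ zygotes there were 1020 among 9606 maternal peaks (10.6%, 10.0 to 11.3) and 3631 among 22823 paternal peaks (15.9%, 15.4 to 16.4). The paternal lists thus held a larger share of gene-desert peaks than the maternal lists in both genotypes. The nearest members lay 100090, 100000, 100159 and 100052 bp from a start site in these 4 lists, and the farthest distal intergenic peaks left out lay at 99918, 99975, 99959 and 99958 bp.

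The mark was measured by ULI-NChIP-seq, in which nucleosomes are pulled from native chromatin of very few cells with an antibody and their DNA is sequenced, in pooled zygotes at the PN5 stage from which the polar bodies had been removed. In all groups C57BL/6J eggs had been fertilized in vitro by sperm of PWK/PhJ males, so the paternal Ezh2 allele was intact in both groups. The mothers of Ezh2m+/p+ zygotes were Ezh2 fl/fl without Cre, and the mothers of Ezh2m-/p+ zygotes were Ezh2 fl/fl; Gdf9-Cre, in which Cre expressed in growing oocytes deletes the floxed exon. Each genotype had 1 H3K27me2 library and 1 input library, and every comparison of genotypes below therefore has no replicate check, no test and no p-value. Reads were assigned to the maternal or the paternal genome by strain variants, so only reads that covered a variant could be used. The lists hold no read counts. The study gives read totals for whole libraries, lower for Ezh2m-/p+ zygotes, and the number of reads per parental genome is unknown. By chromosome, reads covered 13.1% to 33.3% of the maternal and 1.10% to 4.03% of the paternal genome in Ezh2m+/p+ zygotes. In Ezh2m-/p+ zygotes the ranges were higher, at 20.8% to 45.1% and 1.6% to 5.47%. The part of these differences in the comparisons of parental genomes and genotypes below was not tested. The Wilson intervals cover the counting of peaks within these lists only. Which list belongs to which genotype rests on the names of the lists, with WT taken as Ezh2m+/p+ and EZH2 as Ezh2m-/p+.

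H3K27me2 is the dimethylated form of lysine 27 of histone H3. In most cells it is made by Polycomb repressive complex 2 (PRC2), whose catalytic subunit is EZH2 or its relative EZH1, and it spreads over large parts of the genome outside active genes. Gene deserts are long intervals without protein-coding genes, usually poor in G and C, and many flank genes of development or of the nervous system. In the zygote the maternal genome carries chromatin marks set in the oocyte, while the paternal genome arrives packed in protamines and receives new histones after fertilization.

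The following 150-base stretches come from the centre of the gene-desert peak of largest fold over input in each list, and of the 3 maternal peaks that overlapped a paternal peak of the same genotype, the only places where the parental genomes shared a gene-desert peak. They are given because they let the base composition described below be seen. All are the plus strand of the GRCm38 reference from RefSeq, written 5′ to 3′ in lower case, with CG dinucleotides in capitals. The mark parent-shared stands for the maternal peak as a whole, and the stretch printed for it lies outside the paternal peak.
Ezh2m+/p+ maternal, between Tmc1 and Zfand5, chr19:21142825-21142974: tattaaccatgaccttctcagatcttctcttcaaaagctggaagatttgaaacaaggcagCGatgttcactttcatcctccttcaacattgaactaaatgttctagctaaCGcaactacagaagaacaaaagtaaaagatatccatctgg
Ezh2m+/p+ paternal, nearest gene Dtnbp1, chr13:45183125-45183274: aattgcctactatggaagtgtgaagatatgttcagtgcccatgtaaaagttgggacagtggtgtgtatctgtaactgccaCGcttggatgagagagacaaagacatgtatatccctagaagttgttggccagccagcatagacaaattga
Ezh2m-/p+ maternal, nearest gene Gm12724, chr4:105757125-105757274: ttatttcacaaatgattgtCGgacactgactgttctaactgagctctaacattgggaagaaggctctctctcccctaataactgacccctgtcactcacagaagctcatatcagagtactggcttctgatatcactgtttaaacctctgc
Ezh2m-/p+ paternal, nearest gene Camk2d, chr3:126482425-126482574: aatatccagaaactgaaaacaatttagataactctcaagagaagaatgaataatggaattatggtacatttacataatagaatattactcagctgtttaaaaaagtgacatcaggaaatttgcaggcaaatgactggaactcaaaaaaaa
Ezh2m-/p+ maternal, parent-shared, nearest gene Igfbp3, chr11:7630525-7630674: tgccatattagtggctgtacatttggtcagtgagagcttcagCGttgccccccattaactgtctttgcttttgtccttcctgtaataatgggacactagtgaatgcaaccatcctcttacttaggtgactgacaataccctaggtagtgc
Ezh2m-/p+ maternal, parent-shared, nearest gene Tns3, chr11:8287325-8287474: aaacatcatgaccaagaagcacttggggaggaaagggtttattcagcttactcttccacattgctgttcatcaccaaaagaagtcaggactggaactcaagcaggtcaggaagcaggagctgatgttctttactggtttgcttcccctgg
Ezh2m-/p+ maternal, parent-shared, nearest gene Edem1, chr6:109148325-109148474: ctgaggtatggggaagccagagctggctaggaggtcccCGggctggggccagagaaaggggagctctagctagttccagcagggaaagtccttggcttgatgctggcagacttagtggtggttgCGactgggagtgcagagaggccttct
The first 4 stretches held 2, 1, 1 and 0 CG dinucleotides, with a GC content of 37.3%, 43.3%, 43.3% and 28.7%. The 3 stretches marked parent-shared held 1, 0 and 2, with a GC content of 45.3%, 46.7% and 60.0%. The maternal peaks overlapped the paternal peaks at one end, by 199, 399 and 799 bp, so these bases are from the maternal peak only.

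The label of gene desert held for protein-coding genes and less well for other transcripts. Of the members, 97.7%, 98.5%, 98.0% and 98.3% lay 100 kb or more from every protein-coding start site of GENCODE vM21, in the order Ezh2m+/p+ maternal, Ezh2m+/p+ paternal, Ezh2m-/p+ maternal and Ezh2m-/p+ paternal, which is kept below. When start sites of every gene type were counted, 25.8%, 23.5%, 26.1% and 23.6% lay that far, and the median distance was 45.1, 44.8, 47.6 and 47.4 kb. The nearest start site within 100 kb was most often that of a processed pseudogene (30.3%, 36.5%, 31.0% and 37.9% of members) or a long intergenic noncoding RNA (23.4%, 17.6%, 21.5% and 16.2%). Desert here therefore means far from protein-coding genes, and not free of annotated transcripts.

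By the distance in the lists, members lay at a median of 207, 213, 196 and 227 kb from the nearest start site. About as many lay upstream of that gene as downstream, with 46%, 50.8%, 49.9% and 51.1% upstream. The farthest members of the last 3 lists were 1931, 1851 and 2010 kb away by that distance. The first pair of these belonged to Iftap, and the last to Ptprd, a receptor tyrosine phosphatase gene. Flanking genes in GENCODE lay nearer, with Gm10800 at 975 and 1056 kb from the first pair and Ptprd at 392 kb from the last. The distances in the lists can therefore exceed those to the nearest gene. The members far out in the Iftap desert on chromosome 2 were a paternal peak of Ezh2m+/p+ zygotes at chr2:99642601-99645599 and a maternal peak of Ezh2m-/p+ zygotes at chr2:99723601-99724799, which did not overlap.

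Members were short. Their median length was 2999, 1599, 2199 and 1999 bp, and the 7753 members covered 1.82, 4.88, 2.46 and 8.84 Mb in the 4 lists. Median length was also close to that of all peaks in each list, at 2999, 1799, 2199 and 1999 bp. The median fold over input, as the authors' peak caller computed it, was 7.71, 36.1, 23.7 and 26.6, against 7.37, 36.1, 23.7 and 15.8 in all peaks. These folds should not be set side by side between lists. Many were whole multiples of one value per list (1.34, 12, 0.765 and 15.8), which held for 48.8%, 77.5%, 84.1% and 48.3% of members. The median of those members was 28, 4, 33 and 5 such steps, so that paternal folds on such steps lay at few distinct values.

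The members of largest fold lay in different places in the 4 lists. In the Ezh2m+/p+ maternal list they were chr19:21140601-21145199 (fold 81.8) near Zfand5, a peak near Mir145b (72.4) and chr1:119187601-119192199 (71) near Gli2, a transcription factor gene of Hedgehog signalling. In the Ezh2m-/p+ maternal list they were chr4:105754401-105759999 (65.8) near Gm12724, chr13:39067201-39073199 (64.2) near Slc35b3 and chr4:54059401-54065199 (61.2) near Tmem38b. None of these 6 overlapped a peak of any other list, where 9.47% and 5.78% of all maternal peaks overlapped one of the other genotype. In the Ezh2m+/p+ paternal list they were chr13:45180201-45186199 (277) near Dtnbp1 and a pair near Sec16b, at chr1:157802801-157810199 (271) and chr1:157871201-157877199 (253). In the Ezh2m-/p+ paternal list they included chr3:126479201-126485799 (394) near Camk2d and chr3:123914001-123919799 (363) near Ndst3. All 5 paternal members named here overlapped a paternal peak of the other genotype, as did 66.1% and 45.7% of all paternal peaks.

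The longest members ran to 17399, 13199, 11799 and 20599 bp and had low folds of 5.94, 8.38, 5.66 and 11.6. They lay at chr2:133865001-133882399 near Mir3090, chr9:47906601-47919799 near Nxpe4, chr11:7468401-7480199 near Igfbp3 and chr1:193699801-193720399 near Mir205. The longest maternal member of Ezh2m+/p+ zygotes overlapped no peak of another list. The other 3 each overlapped a peak of the same parental genome in the other genotype, and the member near Mir205 met 3 of them.

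Members were sparser than other peaks. Sequence 100 kb or more from a listed gene's start site and outside transcripts made up 663 Mb, or 25.9% of the known bases of chromosomes 1 to 19 and X, in 1788 separate stretches. Members numbered 0.853, 3.83, 1.54 and 5.48 per Mb of it, against 2.73, 8.08, 4.53 and 10.1 other peaks per Mb of the remaining sequence. The ratio was 0.312 and 0.340 in the maternal lists and 0.474 and 0.542 in the paternal lists, so the deficit was smaller on the paternal genome. These densities count all members. The midpoints of 542, 2444, 974 and 3515 lay in a stretch, which alone gives 0.818, 3.69, 1.47 and 5.31 per Mb.

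Density fell with distance in all lists. Members were classed by the distance in the lists, and desert sequence by that to GENCODE start sites of genes with an Entrez identifier. These distances can differ at the same place. From 100 to 200 kb there were 1.35, 5.83, 2.59 and 7.72 members per Mb of desert. From 200 to 500 kb there were 0.888, 3.58, 1.46 and 5.41, and from 500 to 1000 kb 0.348, 2.47, 0.682 and 3.96. Beyond 1000 kb, where 6, 61, 11 and 79 members lay, the densities were 0.107, 1.09, 0.196 and 1.41. The GC content of the desert sequence fell along the same classes, with medians of 40.4%, 38.9%, 37.4% and 36.7% in windows of 2 kb. GC content and distance thus moved together, and their parts in the density were not tested apart.

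Members were richer in G and C than the desert around them. Their median GC content was 43.6%, 41.8%, 43.4% and 41.1%, against 38.8% in desert windows, and 93.8%, 77.4%, 92.2% and 71.3% of members were above the desert median. They were poorer in G and C than other peaks, since 98.5%, 90.3%, 97.7% and 87.3% of all peaks were above that median, as were 99.2%, 92.5%, 98.3% and 89.8% of nearer distal intergenic peaks. In desert sequence below 36% GC there was 1 Ezh2m+/p+ maternal member and there were 8 Ezh2m-/p+ maternal members in 154 Mb, or 0.00650 and 0.0520 per Mb, while the paternal lists held 1.20 and 2.11 per Mb there. At 46% GC or more the densities were 3.54, 10.5, 6.15 and 11.1 per Mb. As a ratio of these densities the climb with GC was steeper in the maternal lists, and as a difference in members per Mb it was larger in the paternal lists. No member in any list met the base composition of a CpG island (GC over 50% and an observed-to-expected CpG ratio over 0.6), and these counts of 0 allow shares of up to 0.531%, 0.118%, 0.294% and 0.0826%. Such peaks were rare throughout, at 0.279%, 0.857%, 0.770% and 0.876% of all peaks and 1, 0, 1 and 1 of the nearer distal intergenic peaks. The median CpG density was 6.67, 5.63, 6.67 and 5.01 per kb, against 5.00 in desert windows. Repeat-masked sequence made up a median of 19.6%, 23.4%, 19.7% and 24.4% of a member and 31.3% of a desert window. The GC content of the reads was not analysed here, and the part of sequencing and of read assignment in this pattern was not tested.

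**Figure D1:**
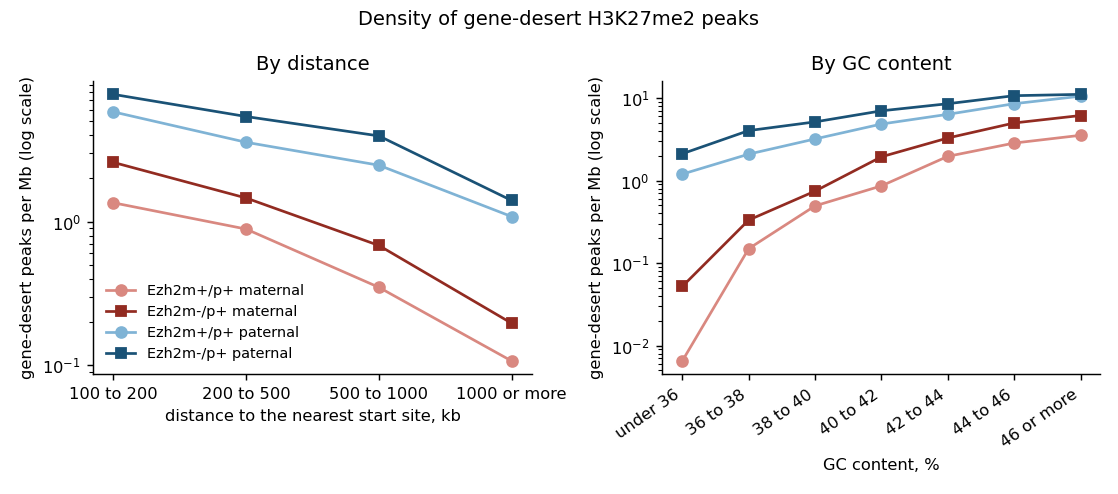
Gene-desert H3K27me2 peaks per Mb of desert sequence (vertical axes, log scale) by distance from the nearest start site in kb (left) and by GC content of the desert sequence in percent (right), with 1 line for each of the 4 lists. Peaks were classed by the distance in the lists, and desert sequence by the distance to GENCODE start sites. Density fell with distance in every list, and rose with GC content from 0.00650 to 3.54 per Mb in the Ezh2m+/p+ maternal list and from 1.20 to 10.5 in the Ezh2m+/p+ paternal list.

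The chromosomes densest in members differed between the parental genomes. Chromosome 2 was densest in the Ezh2m+/p+ maternal list, with 103 members or 2.80 per Mb of its desert, and chromosome 11 in the Ezh2m-/p+ maternal list, with 98 or 4.28 per Mb. X was lowest in both, with 5 and 9 members, or 0.0913 and 0.164 per Mb. In the paternal lists chromosome 14 was densest in Ezh2m+/p+ zygotes, with 224 members or 6.30 per Mb, and X in Ezh2m-/p+ zygotes, with 527 or 9.62 per Mb. Chromosome 16 was lowest in both, with 29 and 51 members, or 1.06 and 1.86 per Mb. Genotypes ranked the 20 chromosomes alike within a parental genome (Spearman's rho 0.923 maternal, 0.938 paternal), and the parental genomes of 1 genotype did not (-0.033 in Ezh2m+/p+, 0.195 in Ezh2m-/p+). These are descriptions over chromosomes that share a library, sequence composition and variant density.

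X stood apart in opposite directions. Its member density over that of the median autosome was 0.112 and 0.122 in the maternal lists and 1.74 and 2.03 in the paternal lists. For all other peaks the same ratio was 0.136 and 0.217 in the maternal and 0.319 and 0.429 in the paternal lists. Other peaks were thus sparse on the maternal X as well, and the paternal X was above the median autosome for gene-desert peaks and below it for other peaks. The fraction of X covered by reads, over the median autosome, was 0.523 and 0.581 for the maternal genome and 0.507 and 0.591 for the paternal genome. The part of read coverage in this contrast was not tested. Only sperm with an X bring a paternal X, and the sex of the zygotes is not given. On the paternal X, 319 of 576 peaks (55.4%) and 527 of 985 peaks (53.5%) were gene-desert peaks. Paternal X members were also the richest in repeats, with a median masked share of 45.8% and 46.6% against 21.7% and 21.9% on autosomes, in a desert where the median window was 48.8% masked. X was the chromosome on which desert was denser in paternal peaks than the rest of the chromosome, at 5.82 against 2.36 per Mb and 9.62 against 4.21 per Mb. The same order was seen by a small margin on chromosome 10 in Ezh2m+/p+ zygotes (3.17 against 3.15 per Mb) and on no chromosome in the maternal lists.

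Ezh2m-/p+ zygotes had more members per Mb than Ezh2m+/p+ zygotes on 19 of 20 chromosomes in the maternal genome and on 20 of 20 in the paternal genome. The ratio had a median of 1.80 (0.922 on chromosome 2 to 5.00 on chromosome 8) and of 1.43 (1.14 to 1.76). Chromosome 2 was the exception, with 103 maternal members for Ezh2m+/p+ against 95 for Ezh2m-/p+ zygotes. As all peaks were also more numerous in the Ezh2m-/p+ lists, and the libraries have no replicate, genotype and library cannot be told apart.

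**Figure D2:**
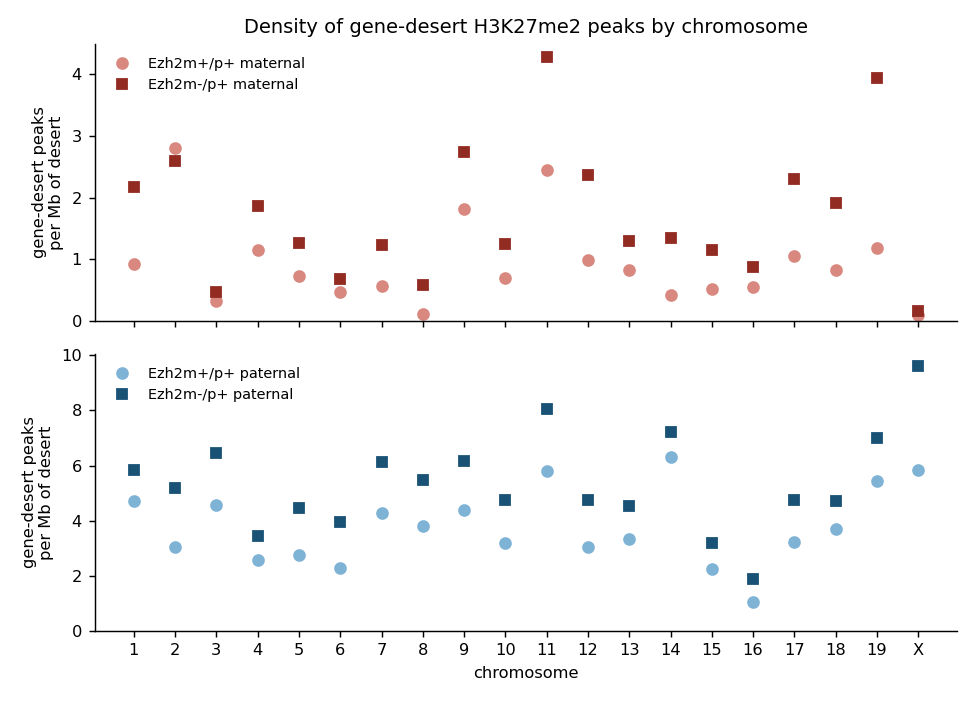
Gene-desert H3K27me2 peaks per Mb of desert sequence on each of chromosomes 1 to 19 and X, for the maternal and the paternal lists of both genotypes. X is lowest in the maternal lists (0.0913 and 0.164 per Mb) and reaches 9.62 per Mb in the Ezh2m-/p+ paternal list, while chromosome 16 is lowest in the paternal lists.

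Members gathered in clusters, more so on the paternal genome. With members joined when at most 100 kb apart, clusters of 5 or more held 9.91% of Ezh2m+/p+ maternal members (7.71 to 12.7), 57.2% of Ezh2m+/p+ paternal members (55.3 to 59.1), 17.5% of Ezh2m-/p+ maternal members (15.2 to 19.9) and 64.1% of Ezh2m-/p+ paternal members (62.5 to 65.6). There were 5, 123, 24 and 188 such clusters. Among distal intergenic peaks nearer to genes the shares were 2.53%, 51.4%, 6.52% and 52.7%, which was below the share of gene-desert peaks in each list. Neighbours enter a cluster together, so these intervals, which treat members as separate, are too narrow. Members with no neighbour within 100 kb made up 56.1%, 15.3%, 42.4% and 11.3%, and the median gap between neighbours was 675, 22.8, 275 and 15.2 kb. The lists differ in the number of members, and a longer list has shorter gaps. The part of list length in the shares was not tested.

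Few stretches held most paternal members. Of the 1788 desert stretches, 297, 505, 442 and 563 held a member, and 12, 134, 37 and 199 held 5 or more. The latter carried 20%, 67.6%, 30.6% and 75.8% of the members of their lists. In Ezh2m-/p+ zygotes, 959 stretches held no member of either parent.

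The desert with most members over all lists lay on X between Pcdh11x, which encodes a protocadherin of the nervous system, and Nap1l3, a nucleosome assembly protein-like gene, at chrX:120910620-122297401. It held no maternal member, 73 paternal members of Ezh2m+/p+ and 117 of Ezh2m-/p+ zygotes. They covered 9.69% and 22.0% of the desert sequence there, with folds of 7.52 to 156 (median 48.1) and 5.91 to 221 (median 63.0). These members were spread over the whole interval, with 40 and 33 on either side of its centre in Ezh2m+/p+ and 57 and 60 in Ezh2m-/p+ zygotes. The largest cluster of each paternal list lay here, at chrX:120934601-122105599 with 68 members and at chrX:120922601-122296599 with 117. Of the 73 Ezh2m+/p+ members, 43 (58.9%) overlapped an Ezh2m-/p+ paternal peak, which was close to the 56.8% of all members of that list and below the 66.1% of all its peaks.

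Other paternal deserts were denser and recurred more, and they were chosen after their values were seen. Peaks overlap more readily where they cover more of the sequence, and the part of this in the recurrence was not tested. Between Sec16b, a gene of export from the endoplasmic reticulum, and Brinp2, a gene of the nervous system, 45 and 42 paternal members covered 29.0% and 39.2% of the desert sequence, and 43 of the 45 (95.6%) overlapped an Ezh2m-/p+ paternal peak, beside 66.1% of all Ezh2m+/p+ paternal peaks. In the core of this desert, chr1:157641001-157937999, peaks covered 51.1% and 67.8% of the span. Between Camk1g, a calmodulin-dependent kinase gene, and Plxna2, a semaphorin receptor gene, there were 51 and 53, and 48 of the 51 (94.1%) recurred. The desert between Olfr1507 and Dad1 on chromosome 14 held 43 and 36 paternal members, of which 35 of 43 (81.4%) recurred. This interval holds the T cell receptor alpha locus, and over the whole of the paternal lists 29 and 23 members had a T cell receptor variable gene as their nearest GENCODE start site. None of these 3 deserts held a maternal member.

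The maternal genome had its own desert. The largest cluster of both maternal lists lay on chromosome 2 between Bmp2, which encodes a signalling protein of the TGF-β family, and Hao1, a glycolate oxidase gene of the liver, at chr2:133675401-134258999 with 25 members in Ezh2m+/p+ and at chr2:133691401-134322999 with 24 in Ezh2m-/p+ zygotes. The whole desert, chr2:133652159-134454307, held 26 and 24 maternal members, which covered 13.7% and 10.6% of its sequence. In Ezh2m+/p+ zygotes the folds ran from 5.03 to 59.0 (median 8.13), and in Ezh2m-/p+ zygotes from 5.11 to 54.3 (median 23.7). No paternal peak of either genotype lay inside these clusters. Of its 26 Ezh2m+/p+ members, 7 (26.9%) overlapped an Ezh2m-/p+ maternal peak, beside 9.03% of all Ezh2m+/p+ maternal members and 9.47% of all peaks of that list. These 7 were 13.7% of all 51 maternal members that did. The desert was named because it held the largest cluster of both maternal lists. Peaks overlap more readily where they are dense, and the part of this in the 26.9% was not tested.

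Both parental genomes had members in some deserts. Between Igfbp3, which encodes a carrier of insulin-like growth factors, and Tns3, an adhesion protein gene, there were 17 and 23 maternal members and 5 and 10 paternal members in Ezh2m+/p+ and Ezh2m-/p+ zygotes. Members of both parents ran across the whole interval, from -516 to 517 kb of its centre for Ezh2m+/p+ maternal members and from -461 to 507 kb for the paternal ones. Between Slc4a3 and Epha4, an ephrin receptor gene, there were 11 and 16 maternal and 5 and 6 paternal members. The desert between Adcyap1, which encodes the neuropeptide PACAP, and Mettl4 held 3 and 12 maternal members and no paternal member. The last 2 deserts were chosen after their values were seen.

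**Figure D3:**
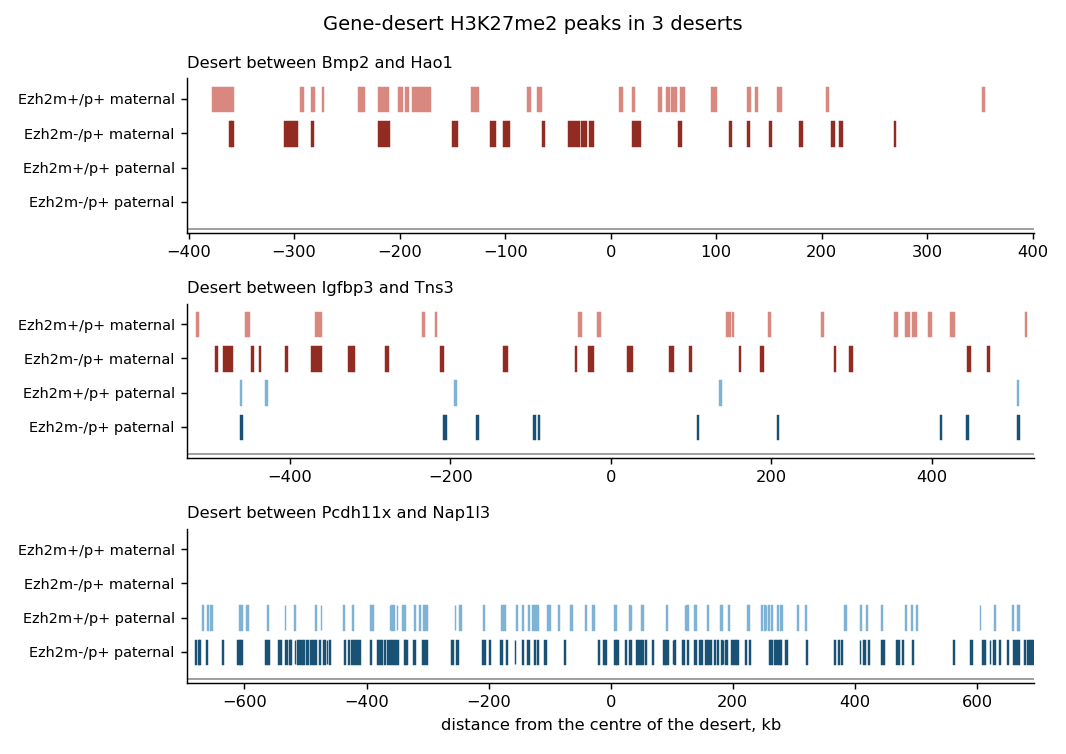
Position of each gene-desert H3K27me2 peak (bars, in kb from the centre of the desert) in 3 deserts, with 1 line for each list. The Bmp2–Hao1 desert holds 26 and 24 maternal peaks only, the Pcdh11x–Nap1l3 desert 73 and 117 paternal peaks only, and the Igfbp3–Tns3 desert holds both over its length.

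Some stretches with many members of one parent had none of the other. In Ezh2m+/p+ zygotes, 6 of 12 stretches with 5 or more maternal members (50%, 25.4 to 74.6) had no paternal member, against 1283 of all 1788 (71.8%), and 99 of 134 with 5 or more paternal members (73.9%, 65.9 to 80.6) had no maternal member, against 1491 of 1788 (83.4%). In Ezh2m-/p+ zygotes these were 16 of 37 (43.2%, 28.7 to 59.1) against 68.5%, and 125 of 199 (62.8%, 55.9 to 69.2) against 75.3%. Stretches with 5 or more members were longer than stretches in general, with a median of 993 and 866 kb of desert for the maternal and 629 and 635 kb for the paternal lists, against 164 kb over all stretches, and the part of length in these shares was not tested. Stretches with 5 or more of both numbered 4 and 12. Any member of both parents was present in 125 stretches of Ezh2m+/p+ zygotes (42.1% of the 297 with a maternal and 24.8% of the 505 with a paternal member) and in 176 of Ezh2m-/p+ zygotes (39.8% of 442 and 31.3% of 563).

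**Figure D4:**
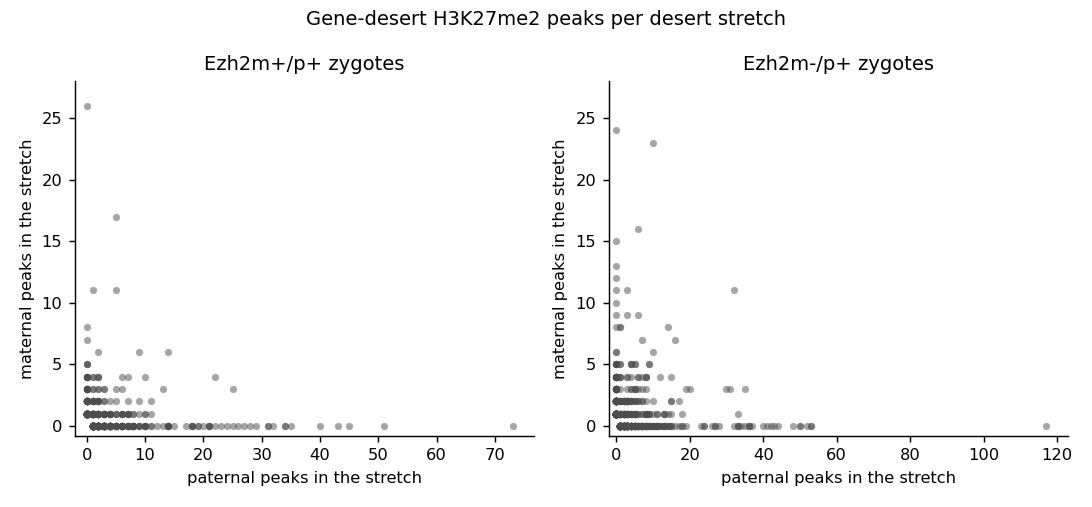
Number of maternal (vertical axis) against number of paternal (horizontal axis) gene-desert H3K27me2 peaks in each desert stretch (points, darker where several coincide), for Ezh2m+/p+ and Ezh2m-/p+ zygotes. A stretch held up to 117 paternal and up to 26 maternal peaks, 1111 and 959 of 1788 stretches held none, and 4 and 12 held 5 or more of both.

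Between the parental genomes, members almost never overlapped. In Ezh2m+/p+ zygotes, 0 of 565 maternal members overlapped a paternal peak, which allows a share of up to 0.531%, beside 0.418% of all maternal peaks. In Ezh2m-/p+ zygotes, 3 of 1020 did (0.294%, 0.100 to 0.861), beside 0.416% of all maternal peaks, a share inside that interval. The median distance from a maternal member to the nearest paternal member was 932 kb in Ezh2m+/p+ and 985 kb in Ezh2m-/p+ zygotes. Neither did a maternal member overlap a paternal peak of the other genotype, with 0 of 565 and 0 of 1020 (up to 0.531% and 0.294%), beside 0.592% and 0.302% of all maternal peaks. Maternal and paternal peaks were called from different reads, each with its own fold scale, and the part of that in the low overlap was not tested.

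The 3 shared places each paired a maternal with a paternal peak of other bounds, and their folds are given on the scale of each list. At chr11:7629001-7632199, 415 kb from Igfbp3, the maternal fold was 5.16 and the paternal peak, chr11:7632001-7635999, had a fold of 12.8. At chr11:8285601-8289199, 179 kb from Tns3, the maternal fold was 9.56 and that of the paternal peak, chr11:8284201-8285999, was 63.0. Both lay in the desert between Igfbp3 and Tns3. At chr6:109147401-109149399, 295 kb from Edem1, a gene of protein degradation in the endoplasmic reticulum, the maternal fold was 22.9 and the paternal peak, chr6:109143801-109148199, had a fold of 7.55. No locus was present in 3 or 4 lists.

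Between genotypes, the share of members that recurred was lower on the maternal than on the paternal genome, and its size depended on what counts as shared. Of the Ezh2m+/p+ maternal members, 51 of 565 (9.03%, 6.93 to 11.7) overlapped an Ezh2m-/p+ maternal peak, beside 9.47% of all peaks of that list and 8.97% of nearer distal intergenic peaks. Of the Ezh2m+/p+ paternal members, 1442 of 2537 (56.8%, 54.9 to 58.8) overlapped an Ezh2m-/p+ paternal peak, beside 66.1% of all peaks and 67.1% of nearer distal intergenic peaks. The paternal share was below and the maternal share close to that of all peaks, and members of one cluster are not independent, so these intervals, which treat members as separate, are too narrow to test this. When a shared peak had to overlap by 50% of both lengths, 5.66% of maternal and 26.2% of paternal members recurred, and with an overlap of 1 bp but a fold over 10, 5.62% and 38.8% did. As a share of the Ezh2m-/p+ lists, 55 of 1020 maternal members (5.39%) and 1295 of 3631 paternal members (35.7%) overlapped an Ezh2m+/p+ peak, beside 5.78% and 45.7% of all peaks.

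**Figure D5:**
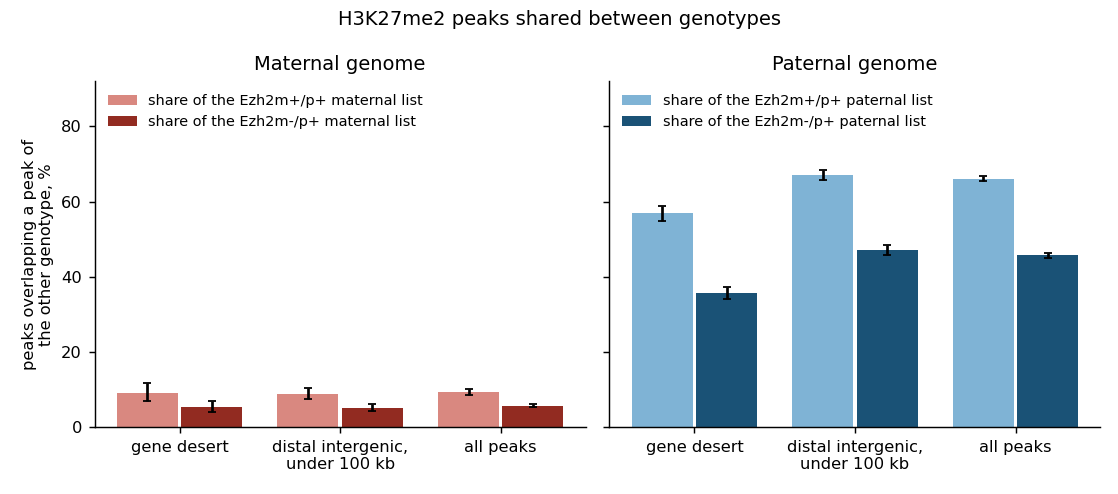
Share of H3K27me2 peaks, in percent, that overlap a peak of the other genotype in the same parental genome, for gene-desert peaks, nearer distal intergenic peaks and all peaks, with error bars for the 95% Wilson interval. Maternal shares are near 9.03% and 5.39% in each class, while paternal gene-desert peaks recur less (56.8% and 35.7%) than all paternal peaks (66.1% and 45.7%).

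Beyond overlap, members were also compared by their distance to peaks of the other genotype. Of the Ezh2m+/p+ maternal members, 25.8% had an Ezh2m-/p+ maternal member within 10 kb and 61.1% within 100 kb, and the median distance to the nearest was 49.4 kb. With any Ezh2m-/p+ maternal peak counted, 26.9% of these members had one within 10 kb and 69.7% within 100 kb, beside 27.1% and 77.7% of all Ezh2m+/p+ maternal peaks, so members were no nearer to peaks of the other genotype than peaks in general. At the level of stretches, 206 were occupied in both genotypes, which is 69.4% of the 297 in Ezh2m+/p+ and 46.6% of the 442 in Ezh2m-/p+ zygotes. Of all 1788 stretches, 75.3% had no Ezh2m-/p+ and 83.4% no Ezh2m+/p+ maternal member. All 5 Ezh2m+/p+ maternal clusters held an Ezh2m-/p+ maternal peak, and 18 of 24 Ezh2m-/p+ maternal clusters held an Ezh2m+/p+ maternal peak. On the paternal genome 93.3% of Ezh2m+/p+ members had an Ezh2m-/p+ paternal member within 100 kb. With any Ezh2m-/p+ paternal peak counted it was 95.4%, beside 97.5% of all Ezh2m+/p+ paternal peaks. There, 449 stretches were shared (88.9% of 505 and 79.8% of 563), where 68.5% and 71.8% of all stretches had no Ezh2m-/p+ and no Ezh2m+/p+ paternal member, as were 123 of 123 and 181 of 188 clusters. Of the 123 Ezh2m+/p+ paternal clusters, 5 held an Ezh2m+/p+ maternal peak.

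Recurrence on the paternal genome varied with the surroundings of a member. It was 67.1% (64.6 to 69.4) in clusters of 5 or more, 47.3% (43.6 to 51.0) in groups of 2 to 4 and 35.8% (31.2 to 40.7) for single members. It was 62.3% (59.5 to 65.0) from 100 to 200 kb and 52.0% (49.4 to 54.7) farther out. On X it was 53.9% (48.4 to 59.3) and on autosomes 57.3% (55.2 to 59.3), with intervals that overlapped. Ezh2m+/p+ paternal members that recurred had a median length of 1799 bp against 1399 bp for the others and lay at a median of 198 against 245 kb. In the Ezh2m-/p+ paternal list these were 2599 against 1799 bp and 198 against 244 kb. The median fold of recurring members was higher in the Ezh2m+/p+ paternal list (48.1 against 36.1) and lower in the Ezh2m-/p+ paternal list (15.8 against 63.0), so the fold had no common direction. On the maternal genome recurrence was 14.3% (7.42 to 25.7) in clusters, 11.5% (7.69 to 16.7) in groups of 2 to 4 and 6.62% (4.37 to 9.91) for single members, with overlapping intervals. These intervals too treat members as separate and are too narrow. A longer member, or a member in a place dense in peaks of the other genotype, meets such a peak more readily. The part of this in the differences was not tested.

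The genes named by the annotation as nearest to members differed between the parental genomes. Maternal members of Ezh2m+/p+ zygotes were most often assigned to Mir3090 (14 members), a microRNA gene, Hao1 (12), Tns3 (10), Slc4a3 (8), an anion exchanger gene, and 2900079G21Rik and Igfbp3 (7 each). Those of Ezh2m-/p+ zygotes were most often assigned to Igfbp3 and Mir3090 (14 each), Adcyap1 (13), Hao1 and Tns3 (10 each). Of these 7 genes, Mir3090, Hao1 and Slc4a3 had no paternal member in either genotype. The others had paternal members in Ezh2m+/p+ and Ezh2m-/p+ zygotes as well, with 3 and 7 for Tns3, 3 and 5 for Igfbp3, 1 and 4 for 2900079G21Rik, and 0 and 1 for Adcyap1. Paternal members of Ezh2m+/p+ zygotes were most often assigned to Nap1l3 (61), Sec16b (39), Adgrl2 (37), a latrophilin adhesion receptor gene, Dad1 (35), and Klhl1 and Pcdh11x (32 each). Those of Ezh2m-/p+ zygotes were most often assigned to Nap1l3 (95), Spertl (56), Pcdh11x (52), and Cldn34c4 and Gm382 (46 each). Of these paternal genes, Adgrl2 had 1 maternal member, in Ezh2m-/p+ zygotes, and the others had none.

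Most genes had few members. The lists named 368, 690, 564 and 801 genes, and 70.7%, 43.3%, 62.6% and 36.3% of them had 1 member. The genotypes shared 222 maternal genes (60.3% of 368 and 39.4% of 564) and 589 paternal genes (85.4% of 690 and 73.5% of 801). The parental genomes shared 110 genes in Ezh2m+/p+ (29.9% of 368 and 15.9% of 690) and 179 in Ezh2m-/p+ zygotes (31.7% of 564 and 22.3% of 801). The nearest listed gene was protein-coding for 73.6%, 76.4%, 74.6% and 75.7% of members, against 86.6%, 86.1%, 85.8% and 85.5% of all peaks.

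Cell adhesion genes of neurons, such as cadherins, protocadherins and latrophilins, were the nearest listed gene over 9.17% of the desert sequence. They were nearest for 1.59% (0.84 to 3.0) and 1.96% (1.27 to 3.01) of maternal and for 7.41% (6.45 to 8.50) and 7.41% (6.60 to 8.31) of paternal members, in Ezh2m+/p+ and Ezh2m-/p+ zygotes. Among all peaks of the lists the shares were 1.01%, 2.41%, 1.22% and 3.07%, maternal before paternal in each genotype. The shares of members were above those of all peaks, though the Ezh2m+/p+ maternal interval included the share of all peaks, and below the share of desert sequence in each list. Pcdh11x (84 members over the 4 lists) and Adgrl2 (81) led this family.

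Developmental transcription factor genes were nearest for 2.30%, 2.52%, 2.65% and 2.42% of members and over 2.09% of desert sequence, against 1.46%, 1.33%, 1.60% and 1.45% of all peaks. The interval of each list included the share of desert sequence. Tshz3 (43), Sox11 and Sox6 (24 each) led this family, with no maternal member at any of the 3. Genes of channels and transmitter receptors were nearest for 1.59%, 0.552%, 1.18% and 0.689% of members, 1.90%, 1.30%, 1.52% and 1.37% of all peaks and 2.53% of desert sequence, led by Kcna4 (18), Grik2 and Kcnj2 (6 each). Olfactory and vomeronasal receptor genes were nearest for 0.177%, 0.276%, 0.490% and 0.220% of members, 0.453%, 1.80%, 0.573% and 1.83% of all peaks and 1.22% of desert sequence, led by Olfr1507 (12), Olfr1505 and Olfr164 (3 each). Predicted genes were nearest for 18.6%, 21.2%, 18.9% and 22.3% of members, 11.0%, 12.5%, 11.1% and 13.3% of all peaks and 17.6% of desert sequence, led by Gm382 (73), 4930555B12Rik (41), F930015N05Rik and Gm20765 (39 each). Members near 1 gene often share a cluster, so these intervals, which treat members as separate, are too narrow.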

How the data were processed

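H3K27me2 peaks of the maternal and paternal genomes of Ezh2m+/p+ and Ezh2m-/p+ zygotes were analysed, with 1 H3K27me2 and 1 input library per genotype. Per the labels and the study's methods, the authors used Trimmomatic 0.38, Bowtie2 with the mm10 genome, SAMtools and Picard, split reads with SNPsplit, called peaks with SICER and annotated them with ChIPseeker. The deposited lists give the ratio of H3K27me2 to input reads of each peak, as a fold, together with its length and its distance to a start site. A deposited coverage table holds, as a fraction, how much of a chromosome the reads covered, and 42 of its 126 values belong to MII oocytes and were not used.

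Peaks were taken as listed. Shared peaks overlapped by at least 1 bp. Desert sequence, flanking genes and the label check came from GENCODE vM21 and GRCm38, the build of the lists, and all 1360 gene identifiers of members matched a RefSeq symbol. Base composition was computed over each whole member and over desert windows of 2 kb. A fold counted as a whole step within 0.002 steps. Overlap, clustering and distance to start sites were tested on simulated data, where 7 of 7 known answers were recovered. Scripts ran in Python 3.11.15 with pandas 2.3.3, numpy 2.4.6 and scipy 1.17.1, and plots were drawn with matplotlib 3.10.9.

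Members, gene families, naming rules and alternatives were chosen with earlier results of these data known. Regions named were the 3 members of largest fold, the longest and the farthest member and the largest cluster of each list, the densest and sparsest chromosome, the desert with most members, and members shared by the parental genomes or by 3 or 4 lists. Genes named were the 5 with most members in each list, with ties, the flanking genes of named deserts, and the 3 leading genes of each family. Features outside these rules were named where a count was small or where the text says that they were chosen after their values were seen. Some items that these rules name are not reported here. The number of reads per parental genome is unknown, and no p-value was computed.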

Additional observations from a re-analysis of the deposited data

Results flagged for a closer look

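Median values of gene-desert peaks moved in opposite directions between the genotypes on the maternal and the paternal genome in 3 of 8 measures compared. The median fold over input was 16.0 higher in Ezh2m-/p+ than in Ezh2m+/p+ zygotes on the maternal genome (23.7 against 7.71), and the paternal difference was -9.51 (26.6 against 36.1). For median length the maternal difference was -800 bp and the paternal difference 400 bp. For the median distance to the nearest start site the maternal difference was -11.7 kb and the paternal difference 14.4 kb. The fold and length shifts were not particular to gene-desert peaks. Over all peaks the maternal median fold was 7.37 and 23.7 and the paternal 36.1 and 15.8, and the median length was 2999 and 2199 bp and 1799 and 1999 bp. Each value comes from 1 library per genotype, so these differences were not tested. The fold scale also differed between the lists. Within folds that were whole multiples of the step of their list, the maternal median was 37.5 in Ezh2m+/p+ zygotes and 25.2 in the other genotype, and the paternal medians were 48.1 and 78.8, so the direction turned on both. Such folds were 48.8% and 84.1% of those of maternal members, while for paternal members they were 77.5% and 48.3%. For the other members the maternal medians were 6.03 and 5.74, which also turned the direction, and the paternal medians were 10.5 and 9.85, which kept it.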

How the results depend on the processing

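With 1 library per genotype no replicate could be left out. No paired analysis was possible because each group had 1 sample. Of 76 alternative values, 26 moved by less than their 95% interval and 50 by more, and the order of the lists is given here as Ezh2m+/p+ maternal, Ezh2m+/p+ paternal, Ezh2m-/p+ maternal and Ezh2m-/p+ paternal. The share of gene-desert peaks became 10.7%, 15.1%, 11.5% and 16.8% with a fold over 10, 5.03%, 7.55%, 5.12% and 9.01% at a distance of 200 kb, and 14.1%, 19.6%, 14.8% and 21.3% with protein-coding start sites. In the paternal lists it became 11.1% and 15% with a length of 2000 bp or more, 12.8% and 14.2% on autosomes, and 11.4% and 13.2% of covered base pairs. Under each of these settings the paternal share was above the maternal share of the same genotype.

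Recurrence between genotypes became 5.62% (maternal) and 38.8% (paternal) with a fold over 10, 6.29% and 62.5% with a length of 2000 bp or more, 5.66% and 26.2% with a reciprocal overlap of 50%, and 5.39% and 35.7% as a share of the Ezh2m-/p+ lists. On the paternal genome it became 52.0% at 200 kb and 60.3% with a gap of at most 1 kb. The overlap of the parental genomes in Ezh2m-/p+ zygotes rested on 3 peaks and became 0 with a fold over 10 or a reciprocal overlap of 50%, and 0.0826% as a share of the paternal list.

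The share in clusters of 5 or more became 4.02%, 55.2%, 7.58% and 55.7% with a fold over 10, 6.97%, 35.8%, 9.35% and 52.4% with a length of 2000 bp or more, 6.02%, 47.3%, 10.5% and 55.4% with gaps of at most 50 kb, and 15.8%, 63.0%, 24.0% and 71.1% with gaps of at most 200 kb. On autosomes it became 52.3% and 58.8% in the paternal lists, and at a distance of 200 kb 17.3% in the Ezh2m+/p+ maternal list. The cause of these shifts was not tested. The fold limit does not mean the same in each list.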
